A study of Homo sapiens with 17 samples.

Results

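The genes described here are the protein-coding genes of human chromosome 19 whose symbol is ZNF followed by a number. There were 246 of them among 1410 protein-coding genes of the chromosome in the RefSeq table. They were selected on symbol and chromosome alone, but the group was picked for description with the occupancy of these genes in the same data already known. The difference from other genes is therefore given as a description, with no test. A gene was counted for a peak list when at least 1 bp of a peak overlapped the gene span extended by 5 kb on each side. The comparison set was the other 1160 protein-coding genes of the chromosome, after 4 read-through or divergent symbols that contain a ZNF name were left out of both sets.

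The data are CUT&RUN peak lists, in which an antibody directs a nuclease to release the DNA around a bound protein. The cells were Nthy-ORI, thyroid follicular epithelium immortalised in culture. All groups were starved of hormone for 24 hours in medium with charcoal-stripped serum and then received 10 nM T3, the active thyroid hormone, or the vehicle, NaOH. The label of each library gives 6 hours of treatment, while the protocol text also names a longer exposure. The antibodies were against TRβ (thyroid hormone receptor beta), BRG1 (an ATPase that drives the nucleosome remodeling machines BAF and PBAF), ARID1A (a BAF subunit) and PBRM1 (a PBAF subunit). Each of the 8 combinations had 2 libraries from 500000 cells per reaction, and nothing says that they came from separate cultures. A further IgG library was not analysed here. For each combination the authors deposited 1 list, which keeps peaks that occur in both of its libraries and are called regions below. No spread between replicate lists can therefore be given. Read depth is unknown from the lists. They held between 1412 (TRβ, vehicle) and 64299 (BRG1, vehicle) regions, and the ratio of T3 to vehicle list length was 5.10 with the TRβ antibody and 4.18 with PBRM1, but 0.870 with BRG1 and 0.851 with ARID1A.

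Most ZNF genes of chromosome 19 encode KRAB zinc finger proteins. Their tandem C2H2 fingers bind DNA, often in transposable elements, and their KRAB domain recruits TRIM28, which brings the histone methyltransferase SETDB1 and HP1 proteins to silence the target. The genes arose by repeated tandem duplication and lie in large clusters, and their 3′ exons, which encode the fingers, are known in other cells to carry the silencing mark H3K9me3. Whether a gene's product has a KRAB domain was not examined here.

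The 5 promoters below are shown because they span the patterns found, from strong TRβ regions to no region at all. Each runs 5′ to 3′ from 250 bases before to 50 bases after a RefSeq start (GRCh38.p14, the build of the peak lists), and capitals mark the nuclear receptor half-site AGGTCA or its reverse complement. ZNF414 (minus strand, chr19:8514118-8514417) carried the TRβ region of highest value of any ZNF gene with T3. ZNF557 (plus strand, chr19:7069453-7069752) and ZNF784 (minus strand, chr19:55624517-55624816) had TRβ regions at the start in both conditions. ZNF160 (minus strand, chr19:53103373-53103672) had no region in any list despite 30 CpG dinucleotides, and ZNF208 (minus strand, chr19:22010894-22011193) had none with 10 CpG.
ZNF414: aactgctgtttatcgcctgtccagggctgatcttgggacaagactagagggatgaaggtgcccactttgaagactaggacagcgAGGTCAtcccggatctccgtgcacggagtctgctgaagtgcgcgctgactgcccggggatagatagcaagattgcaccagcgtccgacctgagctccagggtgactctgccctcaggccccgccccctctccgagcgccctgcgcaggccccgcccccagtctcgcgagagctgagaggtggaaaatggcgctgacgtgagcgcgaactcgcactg
ZNF557: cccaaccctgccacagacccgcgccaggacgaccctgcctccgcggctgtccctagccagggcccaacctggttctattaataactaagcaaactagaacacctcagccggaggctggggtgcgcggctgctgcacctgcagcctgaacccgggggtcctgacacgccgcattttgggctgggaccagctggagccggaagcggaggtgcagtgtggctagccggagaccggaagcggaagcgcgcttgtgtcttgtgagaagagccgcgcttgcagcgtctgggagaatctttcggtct
ZNF784: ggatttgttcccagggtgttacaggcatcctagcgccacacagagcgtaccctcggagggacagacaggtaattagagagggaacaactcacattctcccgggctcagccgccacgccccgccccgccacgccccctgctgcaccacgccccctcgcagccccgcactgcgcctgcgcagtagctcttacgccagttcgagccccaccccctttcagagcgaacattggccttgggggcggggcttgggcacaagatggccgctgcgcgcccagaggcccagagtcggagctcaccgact
ZNF160: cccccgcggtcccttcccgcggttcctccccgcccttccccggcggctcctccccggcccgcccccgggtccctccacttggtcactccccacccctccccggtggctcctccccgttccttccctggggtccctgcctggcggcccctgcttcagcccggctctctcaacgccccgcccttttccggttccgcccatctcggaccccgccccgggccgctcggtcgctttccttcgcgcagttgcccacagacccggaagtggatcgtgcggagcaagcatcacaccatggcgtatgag
ZNF208: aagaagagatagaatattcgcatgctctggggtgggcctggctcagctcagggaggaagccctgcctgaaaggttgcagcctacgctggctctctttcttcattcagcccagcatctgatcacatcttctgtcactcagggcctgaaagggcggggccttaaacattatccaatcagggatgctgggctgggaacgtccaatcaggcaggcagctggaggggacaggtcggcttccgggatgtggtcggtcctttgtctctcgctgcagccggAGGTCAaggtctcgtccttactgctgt
A half-site stood in the windows of ZNF414 and ZNF208, 1 with and 1 without a region, and not in those of ZNF557 and ZNF784, with TRβ in both conditions, or of ZNF160.

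The ZNF genes of chromosome 19 had fewer regions than the other genes of the chromosome with every antibody and in both conditions. For BRG1 with vehicle, 90 of 246 ZNF genes had a region (36.6%, 95% interval 30.6 to 42.9) against 892 of 1160 other genes (76.9%, 74.4 to 79.3). Over all 19884 protein-coding genes of the genome the share was 75.1%. With T3 the BRG1 share was 29.7% of the ZNF genes and 71.7% of the others (genome 71.2%). ARID1A was found at 41.1% against 80.8% with vehicle (genome 69.8%) and at 28.5% against 72.8% with T3 (genome 67.3%). PBRM1 regions lay at 4.07% against 26.5% with vehicle (genome 32.8%) and at 20.3% against 65.6% with T3 (genome 70.1%). For TRβ itself, 5 ZNF genes (2.03%, 0.663 to 4.68) had a region with vehicle, where the other genes stood at 11.5% and the genome at 6.83%. With T3, 46 did (18.7%, 14.03 to 24.14), against 43.8% of the other genes and 28.5% of the genome. The share of ZNF genes minus that of the others ran from −9.43 percentage points (TRβ, vehicle) to −45.3 points (PBRM1, T3). All intervals for shares of genes cover counting error over genes only, and neighbouring genes are not independent. In the plot of shares by list, the ZNF genes are the lowest set throughout.

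**Figure D1:**
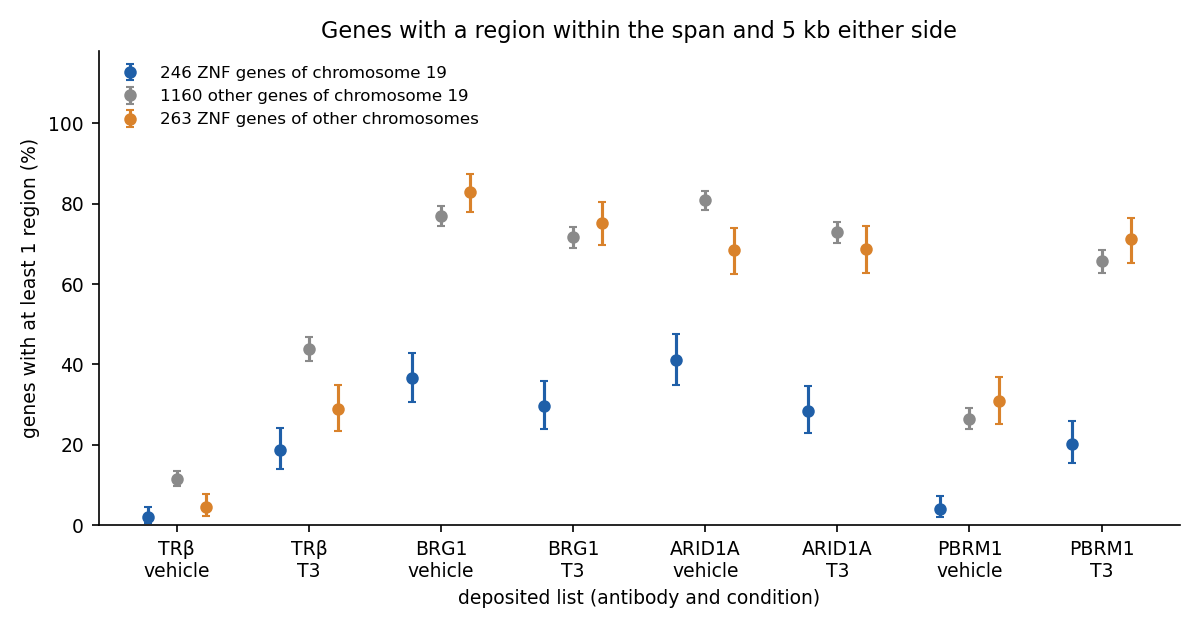
Share of genes (%, vertical axis) with at least 1 region in each of the 8 deposited lists (horizontal axis), with exact 95% binomial intervals, for ZNF genes of chromosome 19, other genes of chromosome 19 and ZNF genes of other chromosomes. The ZNF genes of chromosome 19 lie below the other genes of their chromosome in all 8 lists, for example at 36.6% against 76.9% for BRG1 with vehicle.

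The ZNF symbol by itself did not mark genes with few regions. Of 263 ZNF genes on other chromosomes, 82.9% had a BRG1 region and 68.4% an ARID1A region with vehicle, and 71.1% had a PBRM1 region with T3. Their TRβ share with T3 was 28.9%, close to the genome's. Gene length ran the other way from the shares: the median span of the chromosome 19 ZNF genes was 23.2 kb and that of the other genes 12.7 kb. Per 10 kb of extended span, the other genes held 5.22 times as many BRG1 vehicle regions and 3.43 times as many TRβ T3 regions. Within genes of 10 to under 30 kb, 32.4% of 139 ZNF genes and 80.4% of 470 other genes had a BRG1 region with vehicle. The same gap was narrower under 10 kb (53.6% of 28 against 68.0% of 453). ZNF genes beside genes of other families more often had a region, and their windows can take in regions of the neighbour. The 34 ZNF genes whose extended span met another protein-coding gene outside the family had BRG1 with vehicle at 67.6%, against 31.6% of the other 212. When both sets were limited to genes whose window met no other protein-coding gene, the differences in share were smaller. They were −25.2 points for BRG1 with vehicle (−34.4 to −15.2), −10.1 for TRβ with T3 (−17.4 to −1.81) and −1.83 for TRβ with vehicle (−5.02 to 2.54).

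In all, 102 ZNF genes (41.5%) had no region in any list, against 138 (11.9%) of the other genes. The first 5 in order along the chromosome were ZNF556, ZNF177, ZNF560, ZNF426 and ZNF561. No ZNF gene was in all 8 lists, where 55 of the other genes (4.74%) were, and 7 were in 7 lists (ZNF557, ZNF558, ZNF44, ZNF565, ZNF146, ZNF574 and ZNF473). ZNF565 and ZNF146 share 1 cluster of regions at the start of ZNF146. A set of 14 genes had every list except the vehicle lists of TRβ and PBRM1, among them ZNF414, ZNF653, ZNF628, ZNF575, ZNF576, ZNF524 and ZNF865. At the edge of the 5 kb window, the TRβ T3 region of ZNF541 lay 4997 bp from the gene and was counted, while that nearest to ZNF77 lay 5270 bp away and was not. Where regions did occur at ZNF genes they were of middling rank in their list. The deposited signal value of a region adds up the values in its 2 libraries and serves here to describe and rank regions inside 1 list, not to compare lists. The median rank percentile of regions at ZNF genes ran from 35.6 (7 PBRM1 vehicle regions) to 67.9 (5 TRβ vehicle regions), with 47.7 for the 136 BRG1 vehicle regions.

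The 5 ZNF genes with a TRβ region in vehicle-treated cells were ZNF557, ZNF558, ZNF121, ZNF44 and ZNF784. At ZNF784 the vehicle region (chr19:55623956-55625276) had a value of 20.01, with 9.85 in one library and 10.2 in the other, and ranked 117 of 1412. With T3 a region at the same start had 24.4 (11.6 and 12.8) and ranked 127 of 7208. ZNF558, a KRAB zinc finger gene reported to control the mitochondrial gene SPATA18, had 19.4 with vehicle (10.4 and 9.07) and 26.3 with T3 (14.2 and 12.1). Its region lay inside the gene span, over the ZNF558 start listed in the promoter table. It was also within 1 kb of the start of MBD3L1, a germ-cell gene related to methyl-CpG-binding proteins. ZNF557 had 13.7 with vehicle (6.45 and 7.29) and 20.7 with T3 (12.3 and 8.43). The 2 libraries lay close together at ZNF784 and further apart at ZNF557 with T3. ZNF44 had 13.6 with vehicle (6.57 and 7.01) and 10.4 with T3 (7.03 and 3.41), the T3 libraries being the less alike. ZNF121 had 11.5 with vehicle (5.75 and 5.73) and no TRβ region with T3, the single ZNF gene of that kind. All 5 vehicle regions overlapped BRG1 regions of both conditions. At the start taken as the outer end of the gene span lay 4 of them, and all 5 lay at a start listed in the promoter table.

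With T3, TRβ regions at ZNF genes were more numerous and mostly at gene starts. The highest value was at ZNF414 (chr19:8512202-8514565) with 28.0, made of 16.3 and 11.7 in the 2 libraries, and it ranked 67 of 7208. ZNF846 followed with 26.7 (14.3 and 12.4), at the outer end of its span rather than at the start listed in the promoter table. ZNF575 had 19.9 (10.4 and 9.46). A region between ZNF524 and ZNF865 counted for both, with 16.4 (6.25 and 10.2). ZNF628 had 16.3 (7.81 and 8.52), in its upstream flank. The lowest value was 8.17 (3.91 and 4.26) at the region shared by ZNF320 and ZNF468. Several genes of middle rank had unequal libraries, such as ZNF473 with 3.91 and 9.04 and ZNF441 with 7.81 and 3.41, as the plot of TRβ values by library shows.

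**Figure D2:**
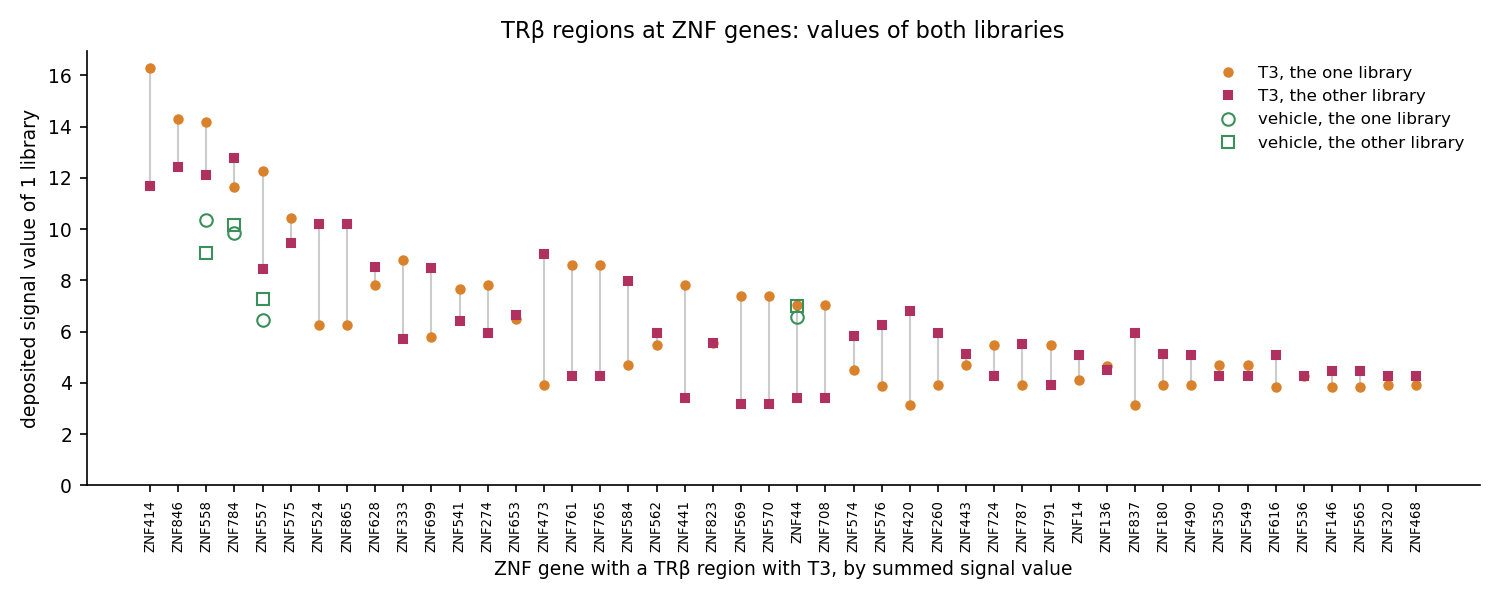
Deposited signal value of each of the 2 libraries (vertical axis, authors' units) for the TRβ region of highest summed value at each of the 46 ZNF genes with a TRβ region with T3 (horizontal axis, ordered by summed value). Filled symbols are T3 libraries and open symbols the vehicle libraries of the 4 genes also listed with vehicle, and the 2 T3 values run from 16.3 and 11.7 at ZNF414 to 3.91 and 4.26 at ZNF468.

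Not all ZNF genes with TRβ after T3 had a remodeler region, and ZNF genes as a whole had fewer of these (BRG1 with T3 at 29.7%, against 71.7% of the other genes). Of the 46 ZNF genes with TRβ after T3, 31 (67.4%) had a BRG1 region with T3, 31 had ARID1A and 26 (56.5%) had PBRM1. Of 508 other genes with TRβ after T3, the shares were 97.2%, 96.9% and 89.6%. At 9 ZNF genes (ZNF320, ZNF350, ZNF420, ZNF468, ZNF549, ZNF616, ZNF724, ZNF761 and ZNF765) none of the 3 remodeler subunits was listed with T3, against 3 of the other genes. Taking regions themselves, 34 of 53 TRβ T3 regions at ZNF genes (64.2%) overlapped a BRG1 T3 region, against 416 of 507 (82.1%) at other genes alone. Among ZNF genes without TRβ, 42 of 200 (21.0%) had a BRG1 T3 region, and among other genes without TRβ 338 of 652 (51.8%). These differences were not tested.

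Between conditions, more ZNF genes had TRβ and PBRM1 regions with T3, and more had BRG1 and ARID1A regions with vehicle. TRβ was listed at 42 ZNF genes only with T3 (17.1%, beside 33.5% of other genes), at 1 only with vehicle (0.407%, beside 1.21%) and at 4 in both. PBRM1 was listed at 42 only with T3 (17.1%, beside 40.2%), at 2 only with vehicle (0.813%, beside 1.03%) and at 8 in both. For BRG1, 30 ZNF genes had a region only with vehicle (12.2%, beside 7.07%) and 13 only with T3 (5.28%, beside 1.9%). For ARID1A, 47 were vehicle-only (19.1%, beside 11.6%) and 16 T3-only (6.504%, beside 3.71%). The share with T3 minus that with vehicle was 16.7 percentage points for TRβ (12.004 to 21.9), −6.91 for BRG1 (−12.1 to −1.69), −12.6 for ARID1A (−18.7 to −6.38) and 16.3 for PBRM1 (11.5 to 21.5), with intervals for shares paired by gene. These differences move with the lengths of the lists. When both lists of an antibody were held to the length of the shorter, the TRβ difference was 3.66 points and that of PBRM1 −0.407 points, with intervals of 0.690 to 7.16 and −3.52 to 2.65. Those of BRG1 and ARID1A were −3.25 (−8.32 to 1.83) and −6.91 (−13.0 to −0.787). At an irreproducible discovery rate of at most 0.01 the ARID1A difference turned to 2.03 points (−2.65 to 6.75). The plot of genes by condition sets the ZNF genes beside the others.

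**Figure D3:**
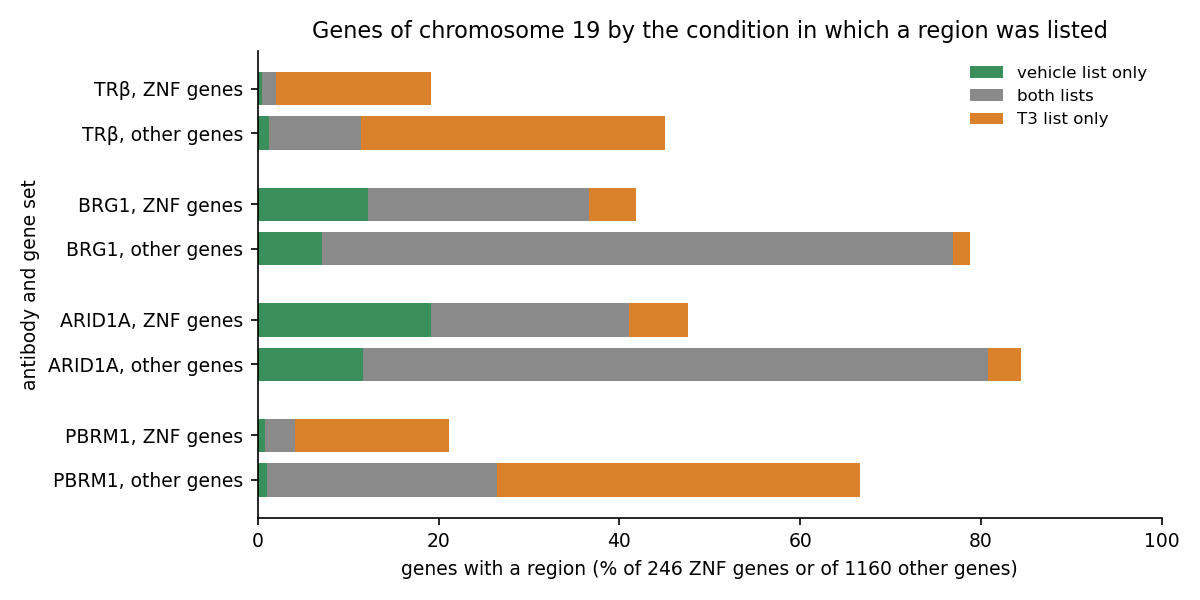
Share of genes (%, horizontal axis) with a region only in the vehicle list, in both lists or only in the T3 list, for 246 ZNF genes and 1160 other genes of chromosome 19 and each antibody. Grey, the part listed in both conditions, makes up most of the BRG1 bar of the other genes (69.8%) and less of that of the ZNF genes (24.4%).

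Counted by region, BRG1 and ARID1A vehicle regions at ZNF genes more often had no T3 counterpart than those at other genes. Of 136 BRG1 vehicle regions at ZNF genes, 62 (45.6%) overlapped no T3 region, against 33.3% of 2137 at other genes alone, a difference of 12.3 points (3.89 to 20.9). For ARID1A the shares were 65.0% of 140 and 55.4% of 2532, a difference of 9.59 points (1.16 to 17.2). The few vehicle regions of the other proteins did not share this: 1 of 5 TRβ regions had no counterpart, against 36.0% of 89 at other genes, and 2 of 7 PBRM1 regions (28.6%), against 28.5% of 277. T3 regions at ZNF genes also more often had no vehicle counterpart. The shares were 23.2% against 17.2% at other genes for BRG1 (difference 5.96 points, −1.61 to 15.5). For ARID1A they were 42.7% against 35.4% (7.26, −2.78 to 17.9). For TRβ they were 92.5% against 87.6% (4.88, −5.75 to 10.4) and for PBRM1 91.0% against 81.3% (9.71, 0.255 to 14.97). The intervals of BRG1, ARID1A and TRβ included no difference, and the lower end of that of PBRM1 lay at 0.255 points. All intervals for regions, with T3 or vehicle, cover counting error over the regions of 1 list per condition. Neighbouring regions are not independent, and no test was made. The BRG1 and ARID1A vehicle regions without a counterpart were the weaker ones. Their median signal value was 10.7 against 16.3 for shared BRG1 regions and 8.49 against 12.1 for shared ARID1A regions. The genes with TRβ only with T3 and those with PBRM1 only with T3 overlapped in part: 19 ZNF genes had both only with T3, which is 45.2% of the 42 for either protein. Among other genes the overlap was 190, or 48.8% of the TRβ and 40.8% of the PBRM1 set.

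The highest BRG1 values with vehicle were at ZNF575, ZNF414 and ZNF576. The region upstream of ZNF575 had 39.4 (23.01 and 16.41), within 1 kb of the start of ETHE1, a mitochondrial sulfur dioxygenase. ZNF414 had 37.3 with vehicle (14.6 and 22.8) and 33.4 with T3 (18.9 and 14.4). ZNF576 had 34.5 with vehicle (20.54 and 14.01), at a start shared with IRGQ. The top BRG1 value with T3 was at ZNF628, with 40.3 (26.0 and 14.2), where the vehicle region had 28.6 (16.0 and 12.7). The most BRG1 regions with vehicle were at ZNF83, with 7 (3 with T3), then at ZNF581 with 6 and, before other genes with 5 in alphabetical order, at ZNF114.
Among genes with BRG1 only with vehicle, the highest values were at ZNF274 (21.0), ZNF799 (16.8) and ZNF625 (16.4). Among those with BRG1 only with T3, ZNF235 led with 11.8, before ZNF324B with 11.4 and ZNF559 with 10.7. These values come from separate lists and were not compared.

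ARID1A was led by ZNF628 with vehicle, at 37.8 (15.1 and 22.7), and by ZNF574 with T3, at 33.6 (13.3 and 20.3). At ZNF574 the T3 region ranked 353 of 41710, and the vehicle region at the same place had 21.7 (10.2 and 11.6). ZNF444, which encodes a SCAN-domain zinc finger protein, had the highest ARID1A value among genes listed only with T3, with 21.2 (9.39 and 11.8). That region lay inside the gene span, over the ZNF444 start listed in the promoter table. ZNF606 (12.3), ZNF383 (12.3) and ZNF266 (11.4) led the genes with ARID1A only with vehicle.
PBRM1 was listed at 10 ZNF genes with vehicle. The highest value, 21.0 (10.6 and 10.4), belonged to a region in the flank of both ZNF580 and ZNF581 that lay at the start of CCDC106. ZNF555, ZNF682 and ZNF146 had a PBRM1 vehicle region at their own start, and the strand of ZNF473 was not known. With T3 the leaders were ZNF575 with 20.3 (12.03 and 8.24), ZNF628 with 20.1 (11.98 and 8.12) and ZNF574 with 19.8 (8.48 and 11.4). ZNF296, whose start lies beside that of GEMIN7, had 19.6 (8.05 and 11.6) only with T3. ZNF579 and ZNF682 were the 2 genes with PBRM1 only with vehicle, at 13.4 and 12.9.

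Few ZNF genes had a region at the 3′ end, and more had one at the start. Strand was known for 216 ZNF genes and 966 other genes, and a region was placed at the start or the 3′ end when it came within 1 kb of it. Start and 3′ end were the outer ends of the gene span, while for some genes the promoter table lists a start further inside. TRβ with T3 was at the start of 33 ZNF genes (15.3%) and at the 3′ end of 0 of 216, which allows a share of up to 1.69% (exact interval). For the other genes these shares were 26.7% and 7.45%. With vehicle the ZNF figures were 1.85% and 0, beside 4.76% and 2.38%. BRG1 with vehicle stood at 30.1% of ZNF starts and 2.31% of 3′ ends, beside 58.8% and 18.5%, and with T3 at 24.5% and 3.24%, beside 52.3% and 16.5%. ARID1A gave 24.5% and 4.63% with vehicle (others 55.3% and 27.8%) and 22.2% and 3.24% with T3 (others 49.7% and 19.5%). PBRM1 gave 1.39% and 0 with vehicle (others 13.1% and 3.42%) and 15.7% and 2.31% with T3 (others 46.5% and 13.3%). When any start of the promoter table was allowed, the start shares were higher in both sets. For ZNF genes they were then 34.7% for BRG1 with vehicle (others 60.7%), 26.4% for ARID1A with T3 (others 52.2%) and 20.8% for PBRM1 with T3 (others 49.4%). The 3′ end count was 7.69% of the start count at ZNF genes for BRG1 with vehicle, and 31.5% at the others. In the profile over 10 equal bins of the gene, BRG1 with vehicle was in the first bin of 30.1% of ZNF genes, in the next of 6.02% and in the last of 1.39%. For the other genes these shares were 57.0%, 26.5% and 14.2%. Counted by region, the start share was higher at ZNF genes in all 8 lists. The 3′ end share was closer to that of other genes than when counted by gene for BRG1 and ARID1A in both conditions and for PBRM1 with T3. It was not closer for TRβ with T3, at 0 of 52 regions against 7.98% of 476. Nor was it for the 5 TRβ and 6 PBRM1 vehicle regions, at 0 against 9.88% and 6.48%. Of 128 BRG1 vehicle regions at ZNF genes 59.4% were at the start and 3.91% at the 3′ end, against 34.3% and 6.32% of 1867 at other genes. Of 129 ARID1A vehicle regions 42.6% were at the start, 34.9% inside, 15.5% in the flanks and 6.98% at the 3′ end, where the other genes had 9.11%. For PBRM1 with T3 the 3′ end share was 7.58% of 66 regions at ZNF genes and 5.77% at the others.

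**Figure D4:**
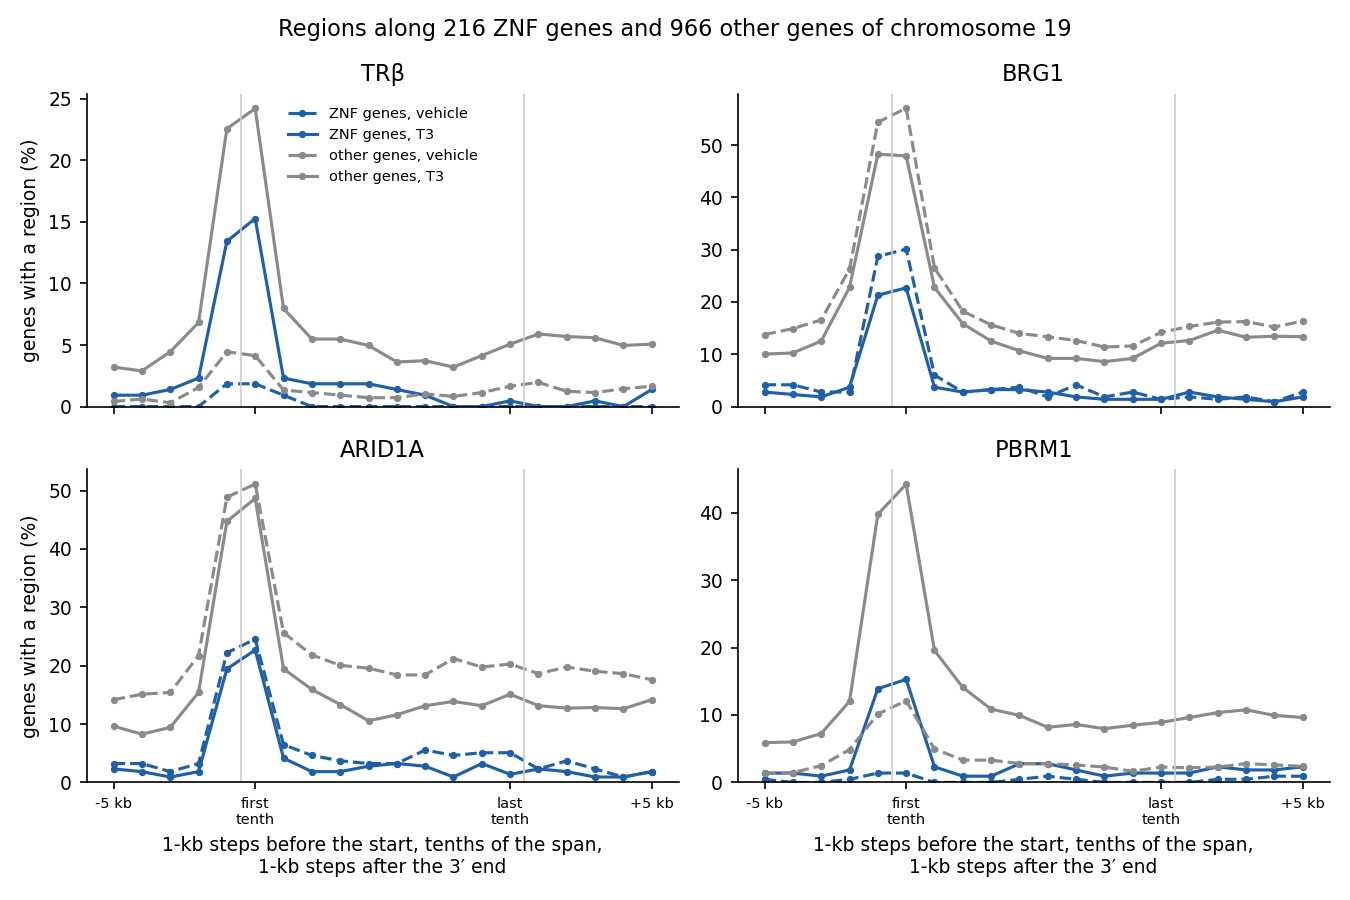
Share of genes (%, vertical axis) with a region in 1-kb steps over 5 kb before the start, in 10 equal bins of the gene span and in 1-kb steps over 5 kb after the 3′ end (horizontal axis), for 216 ZNF genes and 966 other genes with known strand, in each antibody and condition. For BRG1 with vehicle the ZNF genes peak at 30.1% in the first bin and are at 6.02% in the next and 1.39% in the last.

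Of the 216 ZNF genes, 16 had a region of any list at the 3′ end, while 98 had one at the start. This count over any list was not made for the other genes, so it is not set against them. ZNF580, at 2.47 kb the shortest gene of the set, had 3′ end regions in 5 lists, and its start and end windows nearly meet. ZNF653 and ZNF628 had them in 4 lists, and ZNF358, ZNF565, ZNF544 and ZNF324 in 3. At 5 of the 16 the start of another gene, taken as the outer end of its span, lay within 1 kb of the region. These were MCOLN1 beside ZNF358, NAT14 beside ZNF628, ZNF8 beside ZNF544, A1BG beside ZNF497 and ZNF446 beside ZNF324. ZNF580 is outside that count, but its 3′ end (55643470) lies in the promoter window listed for ZNF581 (chr19:55643399-55643698). BRG1 regions of both conditions, ARID1A with vehicle and PBRM1 with T3 covered that window. Those 3′ end regions of ZNF580 cannot be told from regions at the ZNF581 start. At ZNF358 the BRG1 region with T3 was chr19:7521923-7523576, with 12.5 (6.20 and 6.28), next to MCOLN1, a lysosomal ion channel gene. Of the genes with no region at the outer end of their span taken as the start, ZNF358, ZNF565, ZNF544 and ZNF582 had one at the 3′ end. At ZNF358 the start listed in the promoter table lies further inside, and BRG1 and PBRM1 regions with T3 covered it. At ZNF582 it was a single ARID1A vehicle region of low value, 7.76 (3.03 and 4.73).

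Occupied and empty ZNF genes were unevenly spread along the chromosome. With a gap of over 500 kb as the border, the genes formed 20 runs, and 8 runs of 10 or more held 222 of them in 13.96 Mb. Those runs held 13.2 BRG1 vehicle regions per Mb against 54.1 in the rest of the chromosome, and 4.23 TRβ T3 regions against 11.8. The other 24 ZNF genes, in short runs or alone, had BRG1 with vehicle at 75.0%, against 32.4% in the 8 large runs. The run from ZNF653 to ZNF791 held the most genes with TRβ after T3, with 8 of 25 (ZNF653, ZNF823, ZNF441, ZNF136, ZNF44, ZNF443, ZNF490 and ZNF791), and 15 with BRG1 after vehicle. Among the 8 large runs its TRβ share of 32% came after the 38.5% of the run from ZNF414 to ZNF846 (5 of 13).

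The pericentromeric run from ZNF101 to ZNF254 (37 genes, 4.46 Mb) was largely empty. Here 20 genes had no region in any list and 3 had TRβ with T3 (ZNF14, ZNF708 and ZNF724). BRG1 was listed at 10 of the 37 with vehicle and at 2 with T3, ZNF101 and ZNF708. ZNF101, the first gene of the run, had the strongest BRG1 region, 23.9 with vehicle (15.8 and 8.06) and 11.5 with T3 (7.59 and 3.96), and the other 9 vehicle values lay between 7.56 and 10.8. ARID1A was at fewer genes with T3 there too, with 9 genes in vehicle and 2 in T3. The run from ZNF175 to ZNF331 (39 genes, 2.01 Mb) differed by protein. ARID1A was at 12 genes with vehicle and 1 with T3 (ZNF331), BRG1 at 5 in each condition, TRβ at 6 with T3 and PBRM1 at 0 in both. The ARID1A vehicle values at the 12 genes, some of which share a region, ran from 7.39 to 9.96, beside a list median of 9.71. The run from ZNF264 to ZNF446 at the end of the long arm (43 genes) had 26 genes without any region, the most of all runs. From ZNF274 to the end of the run, 9 of 10 genes had a region in 2 or more lists, as the map of genes by list shows.

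**Figure D5:**
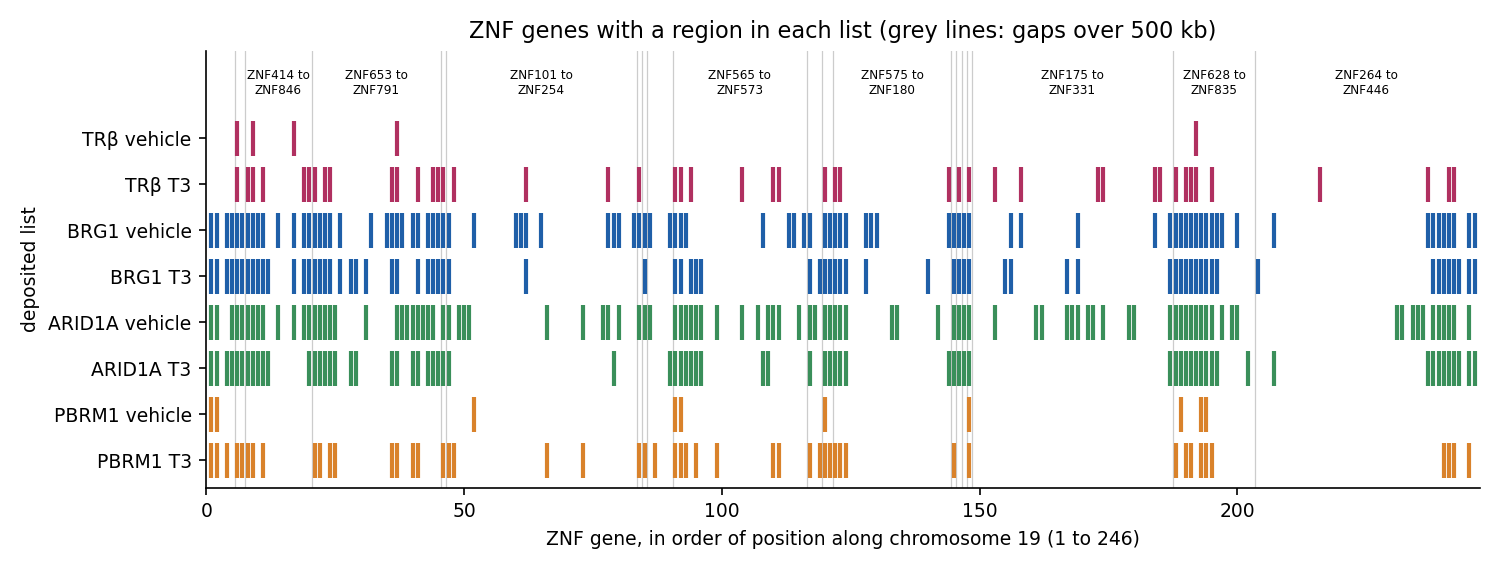
Each of the 246 ZNF genes in order along chromosome 19 (horizontal axis, gene number) with a mark in every deposited list (vertical axis) in which it had a region; grey lines are gaps of over 500 kb, and runs of 10 or more genes are named by their first and last gene. Marks are dense in the runs ZNF414 to ZNF846 and ZNF628 to ZNF835 and sparse in ZNF101 to ZNF254, where 20 of 37 genes have none.

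Several ZNF genes with a known role can be followed singly. ZNF331, which is disrupted by rearrangements in thyroid adenomas, had no TRβ and no PBRM1 region. Its BRG1 regions were inside the gene, with 14.8 with vehicle (10.9 and 3.96) and, at another place, 8.57 with T3 (4.35 and 4.22). Its ARID1A regions were weak, at 7.39 with vehicle (3.12 and 4.27) and 8.53 with T3 (5.06 and 3.48). ZNF274, whose protein binds the 3′ ends of ZNF genes and recruits SETDB1 there, had a TRβ region at its own start with T3, 13.8 (7.81 and 5.97). BRG1 was listed at that start only with vehicle, 21.0 (12.3 and 8.70), and ARID1A only with T3, 9.40 (5.06 and 4.35).
ZNF91 and ZNF93, repressors of SVA and LINE-1 retrotransposons, had few regions. ZNF91 had BRG1 at the start with vehicle, 10.7 (4.38 and 6.30), and ARID1A with T3, 8.66 (5.47 and 3.19), whereas ZNF93 had a single ARID1A vehicle region inside the gene, 8.44 (3.03 and 5.42). ZNF43, ZNF208, ZNF160, ZNF528 and ZNF30 had no region in any list. ZNF536, a 488 kb gene known as a repressor of neuronal differentiation, had 4 lists, each with a region inside the gene, and its TRβ T3 value was 8.54 (4.28 and 4.26). ZNF382 had weak regions in 3 lists at a start shared with ZNF529, of which the highest was 10.6 (7.95 and 2.61) for ARID1A with T3.

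Genes that act with KRAB zinc finger proteins in silencing, with a median length of 39.1 kb, had higher shares than the ZNF genes. All 28 of the list had BRG1 in both conditions, beside 75.1% of all genes with vehicle. ARID1A with vehicle was at 23 (82.1%, beside 69.8% of all genes) and PBRM1 with T3 at 23 (82.1%, beside 70.1%). TRβ with T3 was at 17 (60.7%, beside 28.5%). TRIM28, the KRAB co-repressor, had a TRβ T3 region of 9.83 (3.86 and 5.96) and SETDB1 had none. MORC3 led the list with 17.7 (9.71 and 7.95), before CBX5, an HP1 protein, with 16.5 (8.80 and 7.68). DAXX, a histone chaperone, was the only one with TRβ also in vehicle, 12.4 (6.23 and 6.21) beside 16.3 (8.12 and 8.22) with T3. Other C2H2 symbols of the chromosome (ZFP, ZSCAN, ZBTB and related, 18 genes) had BRG1 with vehicle at 9 and TRβ with T3 at 5, among them ZFP36, an RNA-binding protein of another finger type. Tandem families of the chromosome without zinc fingers varied. Of 20 olfactory receptor genes 0 had BRG1 in either condition and 1 had ARID1A with vehicle. Of 27 SIGLEC, LILR and KIR genes, which encode immune receptors, 5 had BRG1 with vehicle and 1 had TRβ with T3. Of 15 kallikrein protease genes 5 had BRG1 with vehicle, while 11 of 22 PSG and CEACAM genes did and 0 of these had TRβ. Among 8 thyroid epithelial genes, 6 had BRG1 with vehicle, and PAX8, HHEX and TG had TRβ with T3. These lists record occupancy, so they do not check the identity of the cells by expression.

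The promoters of ZNF genes did not lack CpG. The median of observed over expected CpG in the 300-base windows was 0.763 for 216 ZNF genes and 0.729 for 966 others, and 77.3% of the ZNF windows against 59.3% exceeded 0.6. Among windows over 0.6, BRG1 with vehicle covered 51 of 167 at ZNF genes (30.5%) and 449 of 573 at others (78.4%). Among windows up to 0.6 the order for BRG1 with vehicle was the reverse, with 14 of 49 (28.6%) against 73 of 393 (18.6%). The reverse order was not seen with BRG1 after T3, at 14.3% of the ZNF windows up to 0.6 and 15.01% of the others, or with ARID1A after vehicle, at 16.3% and 16.5%. Over 0.6 the shares were 27.5% at ZNF windows and 69.5% at the others for BRG1 after T3. For ARID1A after vehicle they were 28.7% and 65.4%. The classes were not matched: over 0.6 the median window held 22 CpG and 61.3% GC at ZNF genes, and 29 CpG and 68.0% GC at the others. The ZNF windows with a PBRM1 T3 region had CpG over 0.6 in 89.5% of 38 cases, against 74.7% of the 178 without. The split was narrower with ARID1A after vehicle, at 85.7% of 56 against 74.4% of 160. With TRβ after T3 it was 82.1% of 28 against 76.6% of 188. With BRG1 after vehicle it was 78.5% of 65 against 76.8% of 151. A PBRM1 T3 region covered 34 of 167 ZNF windows over 0.6 and 4 of 49 up to 0.6. At the other genes it covered 344 of 573 and 37 of 393, a wider split. AGGTCA on either strand was in 13.4% of ZNF windows, 11.6% of the others and 11.8% of all 15842 protein-coding windows. It was in 5 of the 28 ZNF windows under a TRβ T3 region (ZNF414, ZNF823, ZNF708, ZNF724 and ZNF787) and in 24 of the 188 without one (12.8%). A match of these 6 letters is a description of the window and not of a binding site.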

How the data were processed

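CUT&RUN libraries of 4 antibodies in vehicle or T3 were analysed from 8 deposited peak lists, 1 per group. Per the submitters' processing notes, reads were handled with CASAVA 1.7, Trim Galore, Bowtie2 and MACS2 on hg38. Not given in the sources used here are their settings, the use of the IgG library and the treatment of reads that fit several places, as near-identical ZNF genes can give. The deposited lists have the layout of the IDR method, which scores how well 2 libraries agree in ranking peaks. The deposited signal of a peak is the sum of its 2 libraries' values, and the files do not tie these to replicate numbers. The deposited score rescales the IDR, and the deposited −log10 of the IDR shows that rates reach 0.05.

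Genes came from the RefSeq table (GRCh38.p14), without 153 protein-coding genes of alternate contigs (41 listed under chromosome 19), whose coordinates are not those of the chromosome. Strand came from the RefSeq promoter table, which lacked 30 ZNF genes. Exons were not used. Shares have exact (Clopper-Pearson) and differences Newcombe 95% intervals, in the paired form where the same genes were compared between conditions. With 1 list per group no test across samples was possible, and p-values were not computed. Overlap counting was tested on simulated intervals. The members and gene lists were chosen with earlier results of these data known. Named were 14 genes of interest, and by rule the leaders of each list by signal value, the TRβ vehicle genes, the condition-only leaders of each remodeler, genes in all lists, the leading genes with a 3′ end region and no start region, those with most BRG1 regions, and up to 5 without regions. Other names complete a count and were chosen after values were seen. Alternatives were an IDR of at most 0.01, the region's midpoint, 1 library's interval, isolated genes, other windows, lists of equal length, regions in all 8 lists left out, a wider gene family and, added after seeing the data, any listed start. Python 3.11.15, numpy 2.4.6, pandas 2.3.3, scipy 1.17.1 and matplotlib 3.10.9 were used.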

Additional observations from a re-analysis of the deposited data

How the results depend on the processing

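The difference in share between ZNF and other genes stayed negative in all 8 lists under every alternative run, and the 3′ end share never exceeded the start share. Several sizes moved. At an IDR of at most 0.01 the difference between ZNF and other genes was −2.61 percentage points for TRβ with vehicle, −48.1 for ARID1A with vehicle and −7.33 for PBRM1 with vehicle. In genes whose window met no other protein-coding gene it was −1.83 (TRβ, vehicle; −5.02 to 2.54), −10.1 (TRβ, T3), −25.2 (BRG1, vehicle), −29.1 (BRG1, T3), −28.8 (ARID1A, vehicle), −26.7 (ARID1A, T3), −16.2 (PBRM1, vehicle) and −30.7 (PBRM1, T3). Without extension of the gene it was −5.55 (TRβ, vehicle), −15.2 (TRβ, T3), −33.5 (BRG1, T3), −36.6 (ARID1A, T3), −16.2 (PBRM1, vehicle) and −37.2 (PBRM1, T3). It was −18.6 for TRβ with T3 at 1 kb and −26.4 for PBRM1 with vehicle at 10 kb. The 3′ end minus start difference at an IDR of at most 0.01 was −7.87 (TRβ, T3), −20.8 (BRG1, vehicle), −14.8 (BRG1, T3), −9.72 (ARID1A, vehicle) and −6.94 (PBRM1, T3). T3 minus vehicle was 9.35 for TRβ and turned to 2.03 for ARID1A at that IDR, and with lists of equal length it was 3.66 for TRβ, −3.25 for BRG1 and −6.91 for ARID1A and turned to −0.407 for PBRM1. The cause was not tested, beyond the fewer regions that a stricter IDR or a shorter list holds by construction. Taking the borders of each region from 1 library alone changed none of these directions. It kept the same regions found in both libraries, so it cannot show what leaving out a library would do. No paired analysis was possible because each group has 1 list, so libraries cannot be paired by number; the intervals of T3 minus vehicle are paired by gene. Depth, which limits weak regions, is unknown from the lists.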
